A study of Mus musculus with 10 samples.

Results

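The Ifi200 genes, also called the p200 or PYHIN family, were followed across 10 bulk RNA-seq libraries of neutrophils isolated from mouse squamous cell carcinoma grafts. The family was taken as 10 names, namely Aim2, Ifi203, Ifi204, Ifi205, Ifi207, Ifi209, Ifi211, Ifi213, Mnda and Mndal, matched by symbol to the 55385 mouse genes of the deposited table through GENCODE M21. A table entry was found for 9 of the 10 names. Mnda is not a symbol of that annotation, and RefSeq lists it as a synonym of Ifi211, so no separate value is given for it.

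The host mice were CatchupIVM-red animals, in which a Cre linked to the neutrophil gene Ly6g switches on the red fluorescent protein tdTomato, and the cells sequenced were the Tomato+ neutrophils of the tumour. The libraries' descriptions carry the tag C57 throughout, with GFP for the control and Sox2 for the Sox2Hi grafts. Tumours grew from a parental squamous carcinoma line with low Sox2 (Sox2low, called control here) or from its Sox2Hi counterpart, and Sox2 differed in the grafted tumour cells, not in the neutrophils. Mice were left untreated (naive) or received anti-PDL1/CD40 agonist immunotherapy (treated), which gave 3 naive and 2 treated libraries of control tumours and 3 naive and 2 treated libraries of Sox2Hi tumours. The study set out to test whether tumour cell Sox2 limits how neutrophils respond to interferons. The labels give neither the dose nor the day of collection, and they do not say whether libraries of a group came from separate animals, so p-values measure the spread between these libraries, which may be partly technical.

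p200 proteins typically pair a pyrin domain, used to assemble signalling complexes, with 1 or more HIN domains that bind double-stranded DNA. Interferons induce many of the genes. AIM2 is the best characterised: on binding cytosolic DNA it recruits the adaptor ASC, the product of Pycard, and activates caspase-1. IFI204 is regarded as the mouse relative of human IFI16, a DNA sensor that acts through STING, while the nuclear members are linked to control of transcription and growth in myeloid cells. The mouse locus has expanded by duplication, so its genes resemble each other closely.

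Libraries held 13815734 to 22986193 counts over mouse genes. tdTomato transcripts were counted in all 10 libraries, at 135 to 514 counts. The neutrophil list summed to 11710 to 19220 CPM, which are counts brought to a common library size, in naive and 36460 to 37830 in treated libraries of control tumours. In Sox2Hi tumours it summed to 10570 to 15240 naive and 19740 to 19850 treated, while Ly6g itself stood at 1.74 to 17.8 CPM. All 15 neutrophil markers were in the table, and Elane was at 0 in 1 library. Il1r2 stood at 8455 to 19620 CPM, S100a8 at 914 to 10220 and S100a9 at 693 to 7891, so these genes made up most of each sum. CPM here are scaled by TMM factors taken from the 11274 genes that average 5 CPM or more, called expressed-gene scaling here. Olfactory and vomeronasal receptor genes, which these cells should not express, gave an estimate of stray reads of 5.02% to 8.39% of counts in naive and 1.58% to 1.74% in treated libraries of control tumours. In Sox2Hi tumours it was 3.63% to 3.92% naive and 4.04% to 4.96% treated. This estimate amounted to between 0.294% (Ifi204) and 5.78% (Ifi213) of a member's reads over all libraries. In single libraries it reached 22.1% for Ifi213, 11.0% for Ifi203 and 9.21% for Aim2. Scaling by factors from all 29648 genes that pass a lighter filter, called all-gene scaling here, moved each member's log2 fold change by about the same amount within a comparison, and its result is given wherever it changes a member's call.

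The 9 genes lie in one cluster on chromosome 1 (GRCm38), from Aim2 at chr1:173350879-173466040 on the plus strand to Ifi205 at chr1:174011998-174031810 on the minus strand, 680.932 kb that hold 21 annotated genes. Between them, in order, lie Ifi213 (chr1:173566283-173599274), Ifi209 (chr1:173630917-173647928), Ifi207 (chr1:173723427-173741747), Ifi204 (chr1:173747293-173766943), Mndal (chr1:173849126-173942491), Ifi211 (chr1:173896345-173913046) and Ifi203 (chr1:173920407-173942672). Ifi209 is on the plus strand and the other 6 of these are on the minus strand. The Mndal annotation runs across Ifi211 and almost all of Ifi203 on the same strand, although its exons share only 37 bases with those of Ifi203.

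Shared sequence limits how far single members can be told apart. Of the 31-base words in a gene's transcripts, 5.26% also occurred in another gene for Aim2, 14.8% for Ifi207, 21.9% for Ifi203, 22.1% for Ifi205, 26.6% for Ifi213, 28.7% for Mndal, 34.6% for Ifi204, 47.2% for Ifi209 and 78.9% for Ifi211. Ifi211 is the least certain value: 49.5% of its words also occur in Ifi205 and 38.6% in Ifi204. Nearly all of the sharing of Ifi209 is with Ifi214 (46.8%), and most of that of Ifi213 is with Ifi208 (23.3%). Reads in such stretches are split between genes by estimation, so a difference between relatives is less certain than the level of the group. Aim2 is the member least touched by this.

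The promoters show a further likeness and are printed because the members' responses to treatment are set against them. RefSeq windows of 300 bases (250 before to 50 after a start, GRCm38.p6) were available for 8 members; Ifi204 had no entry. They were searched on both strands for GAAA, any 2 bases and GAAA again, the core letters of the interferon-stimulated response element. The letters were present for 6 of the 8 members (Ifi203, Ifi205, Ifi207, Ifi211, Ifi213 and Mndal), against 3.99% of the 27025 genes with a window. The stretches of 60 bases around the match, read 5′ to 3′ on the strand of the gene with the matched letters in capitals, were:
Ifi203: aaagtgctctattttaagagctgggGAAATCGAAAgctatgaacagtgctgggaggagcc
Ifi205: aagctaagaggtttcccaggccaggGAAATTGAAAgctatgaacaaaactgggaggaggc
Ifi207: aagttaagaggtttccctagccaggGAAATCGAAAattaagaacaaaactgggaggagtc
Ifi211: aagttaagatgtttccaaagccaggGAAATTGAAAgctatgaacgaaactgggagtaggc
Ifi213: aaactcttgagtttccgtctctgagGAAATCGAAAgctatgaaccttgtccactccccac
Ifi206: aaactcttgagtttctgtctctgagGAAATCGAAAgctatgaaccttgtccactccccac
Ifi214: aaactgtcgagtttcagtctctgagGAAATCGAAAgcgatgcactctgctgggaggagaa

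These lie at chr1:173942493-173942552 (Ifi203), chr1:174031855-174031914 (Ifi205), chr1:173741816-173741875 (Ifi207), chr1:173913049-173913108 (Ifi211), chr1:173599311-173599370 (Ifi213), chr1:173491324-173491383 (Ifi206) and chr1:173536002-173536061 (Ifi214), all on the minus strand. Ifi206 and Ifi214 are relatives in the same cluster that were not among the 10 names. The match began 35 bases before the start for Ifi203, 37 for Ifi211, 41 for Ifi207, 73 for Ifi213 and 134 for Ifi205. Ifi203 and Mndal had identical stretches, as did Ifi213 and Ifi208, and Ifi206 matched Ifi213 at 59 of 60 bases. Ifi205, Ifi207 and Ifi211 formed another close set, with 90% identity between Ifi205 and Ifi211 and 83.3% between Ifi207 and Ifi211, whereas Ifi203 and Ifi213 shared 56.7%. The letters GAAATCGAAA were read in 7 of the 9 p200 genes that held a match on their own strand, and GAAATTGAAA in Ifi205 and Ifi211. Ifi209 and Aim2 held no match in these windows. TTCNNNGAA, the letters of the gamma-activated site, was present for 9.55% of all genes and for 0 of the 8 members. A match is a description of the letters and not a measured binding site.

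Levels were compared between genes per kb of annotated exon. In control naive neutrophils Ifi211 (84.3 ± 15.4 CPM per kb, SD, n = 3) and Ifi204 (72.7 ± 3.28) were highest, with overlapping ranges. Within each library Ifi211 was above Ifi204, at 84.0 against 74.8, 69.1 against 68.9 and 99.9 against 74.3. Ifi207 followed at 31.7 ± 8.22, Ifi205 at 20.8 ± 3.31, Ifi209 at 16.5 ± 0.226 and Mndal at 10.01 ± 0.740. Aim2 (6.29 ± 1.27) and Ifi203 (5.71 ± 0.654) did not differ beyond their spread, nor did Ifi207 and Ifi205, and Ifi213 was lowest at 2.64 ± 0.236 CPM per kb. The level of Ifi211 was 32.0 times that of Ifi213 with merged exons as the length. With the longest transcript as the length, Ifi204 was highest at 19.3 times the level of Ifi213, so the order at the top depends on the length used.

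The family made up a larger share of the counts in treated than in naive libraries of both grafts. The 9 members together took 0.0810% ± 0.00461 of all counts in control naive libraries (SD, n = 3) and 0.198% ± 0.0108 in control treated libraries (SD, n = 2). In Sox2Hi tumours the share was 0.0603% ± 0.00665 naive (n = 3) and 0.140% ± 0.00332 treated (n = 2). These are shares of bulk RNA, in which more cells expressing a gene and more RNA per cell cannot be told apart. Markers of neutrophils and of other tumour cells are given beside these shares. By edgeR 12 of the 13 neutrophil markers tested were called higher with treatment in control tumours and 8 in Sox2Hi tumours, where 24.1% and 15% of all genes were; under all-gene scaling 13 and 6 of 14 were, beside 18.7% and 1.79%. The sum of the 8 fibroblast and endothelial markers was 285 to 760 CPM naive and 100.2 to 125 CPM treated in control tumours, and 453 to 639 CPM naive and 124 to 327 CPM treated in Sox2Hi tumours, with 5 and 3 of the 6 tested called lower by edgeR, where 33.1% and 6.57% of all genes were. The sum of the 9 keratinocyte markers was 1117 to 3126 CPM naive and 760 to 1591 CPM treated in control tumours, and 1341 to 1654 CPM naive and 936 to 1566 CPM treated in Sox2Hi tumours, so its ranges overlapped in both. Of these 9 markers, 3 were called lower in control tumours, a share near the 33.1% of all genes. In Sox2Hi tumours edgeR called 0, and 0 had an unadjusted p under 0.05. Under all-gene scaling 3 fibroblast and endothelial markers and 0 keratinocyte markers were called lower in control tumours, and 0 of either list in Sox2Hi tumours. The sum of the 8 dendritic cell markers was 58.2 to 99.7 CPM naive and 44.0 to 51.8 CPM treated in control tumours, and 58.0 to 102.1 CPM naive and 43.4 to 47.1 CPM treated in Sox2Hi tumours, without overlap. Of the 4 tested, edgeR called 0 higher and 1 lower in each graft, Cd209a. Of all genes, 33.1% in control and 6.57% in Sox2Hi tumours were called lower. Under all-gene scaling 2 of 8 dendritic cell markers were called higher and 1 lower in control tumours, beside 18.7% of genes called higher. In Sox2Hi tumours that scaling called 0 higher and 1 lower. The sum of the 6 B and plasma cell markers was 63.0 to 123 CPM naive and 39.5 to 126 CPM treated in control tumours, and 150.5 to 718 CPM naive and 27.8 to 120 CPM treated in Sox2Hi tumours. Of the 4 tested edgeR called 0 in either graft, with an unadjusted p under 0.05 for 0 in control and 1 in Sox2Hi tumours. The part of these cells in the family's values was not tested.

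**Figure D1:**
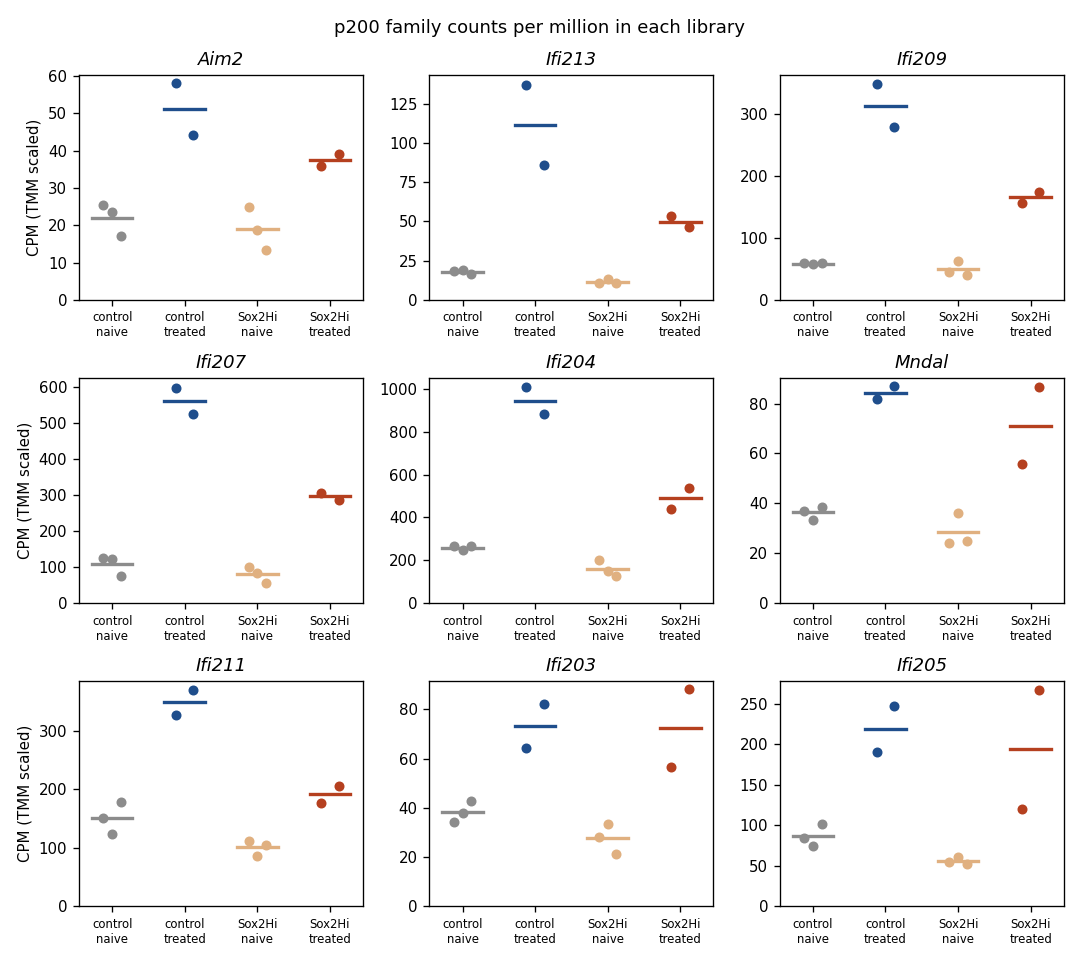
Each panel plots the TMM-scaled level (CPM) of 1 member on a linear axis from 0; points are single libraries and bars are group means. Treated libraries lie above the naive libraries of the same graft for all 9 members, as they do for 29.6% of all genes tested in control and 37% in Sox2Hi tumours, and the Sox2Hi treated libraries of Mndal, Ifi203 and Ifi205 lie far apart.

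Aim2, the cytosolic DNA receptor of the inflammasome, stood at 25.4, 23.6 and 17.0 CPM in the control naive libraries and at 58.1 and 44.2 CPM in the control treated libraries. In Sox2Hi tumours it stood at 24.9, 18.8 and 13.4 CPM naive and at 35.9 and 39.0 CPM treated. The naive and treated libraries did not overlap in either graft, although the gap was narrow. The log2 fold change with treatment was 1.22 ± 0.25 (SE, edgeR quasi-likelihood test, adjusted p = 0.0024) in control and 0.98 ± 0.26 (adjusted p = 0.024) in Sox2Hi tumours. The latter was not called under all-gene scaling (0.72, adjusted p = 0.10).

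Ifi204, the STING-linked DNA sensor, gave the most reads of the family. It was counted at 267, 245 and 265 CPM in control naive libraries and at 1007 and 884 CPM in control treated libraries. In Sox2Hi tumours its level was 199, 150 and 126 CPM naive and 441 and 536 CPM treated. The 4 groups did not overlap, and Sox2Hi libraries were the lower ones at both treatments. Ifi204 rose 3.65-fold with treatment in control tumours (log2 1.87 ± 0.19) and 3.09-fold in Sox2Hi tumours (log2 1.63 ± 0.19; edgeR adjusted p = 9.3e-05 and 0.00074).

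Ifi213, Ifi209 and Ifi207, less studied than Aim2, are the members between Aim2 and Ifi204. Ifi213 went from 18.7, 19.3 and 16.2 CPM in control naive to 137 and 86.2 CPM in control treated libraries. In Sox2Hi tumours it went from 10.7, 13.2 and 10.5 CPM to 53.6 and 46.3 CPM. Its change of 6.19-fold in control tumours (log2 2.63 ± 0.21) was the largest point estimate of the 9 members, and in Sox2Hi tumours it rose 4.36-fold (log2 2.12 ± 0.21).

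Ifi209 was measured at 59.0, 57.5 and 58.8 CPM in control naive libraries and at 348 and 279 CPM in control treated libraries. The corresponding Sox2Hi values were 44.2, 63.1 and 40.1 CPM naive and 157 and 174 CPM treated. The naive libraries of the grafts overlapped, and the treated ones did not. Ifi207 was at 126, 124 and 76.1 CPM in control naive and 599 and 527 CPM in control treated libraries. In Sox2Hi tumours Ifi207 was at 99.8, 83.2 and 55.8 CPM naive and 308 and 287 CPM treated. Both genes rose in both grafts: the log2 fold change was 2.42 ± 0.20 in control and 1.75 ± 0.19 in Sox2Hi tumours for Ifi209, and 2.38 ± 0.26 and 1.90 ± 0.26 for Ifi207 (edgeR adjusted p from 3.6e-05 to 0.0015).

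Mndal, Ifi211, Ifi203 and Ifi205, nuclear proteins of the myeloid nuclear differentiation antigen type, fill the far end of the cluster. Mndal stood at 36.9, 33.4 and 38.7 CPM naive and 81.6 and 87.1 CPM treated in control tumours, and at 24.1, 36.0 and 24.9 CPM naive and 55.8 and 86.5 CPM treated in Sox2Hi tumours. Ifi203 stood at 34.2, 37.8 and 42.9 CPM, then 64.2 and 82.0, then 28.1, 33.6 and 21.2, then 56.5 and 88.1 in the same order of groups. For both, the treated libraries of the 2 grafts overlapped.

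Ifi211 was at 150, 123 and 178 CPM in control naive and 327 and 370 CPM in control treated libraries, and at 111, 85.4 and 105 CPM in Sox2Hi naive and 176 and 206 CPM in Sox2Hi treated libraries. Ifi205, which has been linked to transcription of the ASC gene in macrophages, was at 84.2, 74.5 and 102 CPM, then 190 and 247, then 54.3, 60.4 and 52.0, then 120 and 267 in the same order. Ifi211 was lower in Sox2Hi libraries at both treatments without overlap, whereas the treated libraries of Ifi205 overlapped. With treatment, the log2 fold change in control tumours was 1.22 ± 0.22 for Mndal, 1.21 ± 0.18 for Ifi211, 0.93 ± 0.23 for Ifi203 and 1.33 ± 0.28 for Ifi205. In Sox2Hi tumours it was 1.33 ± 0.22, 0.93 ± 0.18, 1.39 ± 0.24 and 1.80 ± 0.28, in that order (edgeR adjusted p from 0.00052 to 0.0088 over these 8 values).

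In control tumours treatment thus raised 9 of 9 members by the edgeR test, where 24.1% of the 11274 genes tested were called higher. The members' median log2 fold change was 1.33 (range 0.93 to 2.63), beside a median of -0.18 over all genes tested. In Sox2Hi tumours 9 of 9 members rose, where 15% of genes were called higher, with a median of 1.63 (range 0.93 to 2.12) beside 0.09 over all genes. Under all-gene scaling 9 members were called in control tumours, where 18.7% of the 29648 genes tested were called higher, and 7 in Sox2Hi tumours, without Aim2 and Ifi211, where 1.79% were. Without Sox2Hi treated replicate 2 the count in Sox2Hi tumours was 5, with Aim2, Mndal, Ifi211 and Ifi203 no longer called.

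**Figure D2:**
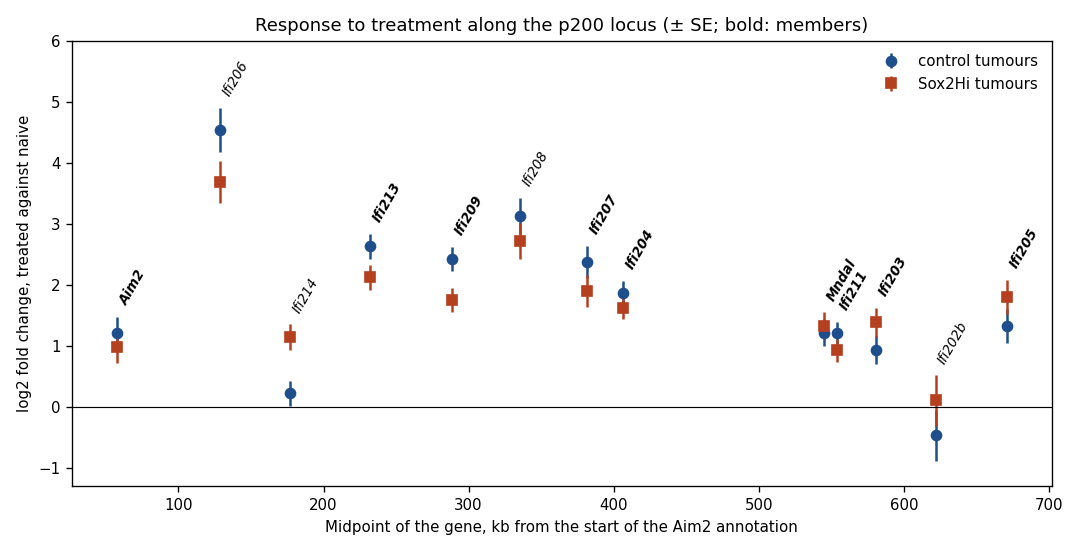
Log2 fold change with treatment (± SE) in control (circles) and Sox2Hi (squares) tumours for the 13 p200 genes tested, against the distance of the gene's midpoint from the start of the Aim2 annotation in kb. In control tumours the estimates for Ifi206, Ifi213, Ifi209, Ifi208, Ifi207 and Ifi204 lie above those for Aim2, Ifi214 and the genes beyond Ifi204, a difference that was not tested; in Sox2Hi tumours the estimate for Ifi205, at the far end, lay above that for Ifi204.

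The plot of fold change against position sets the responses in the order of the cluster, with no test of a difference along it. Aim2, at the near end, had a control log2 fold change of 1.22. From Ifi213 to Ifi204 the members' control log2 fold changes were 1.87 to 2.63, and from Mndal to Ifi205 they were 0.93 to 1.33. In Sox2Hi tumours these ranges overlapped, at 1.63 to 2.12 and 0.93 to 1.80. Of 7 further p200 names listed, 4 had an entry and passed the filter. Ifi206, between Aim2 and Ifi213, had the largest fold change of the 13 p200 genes tested: it went from 9.33, 12.8 and 9.25 CPM to 307 and 176 CPM in control tumours (log2 4.54 ± 0.36) and from 8.61, 8.60 and 3.84 CPM to 105 and 75.4 CPM in Sox2Hi tumours (log2 3.68 ± 0.35; edgeR adjusted p = 3.4e-05 and 0.00026). Ifi208 rose by log2 3.13 ± 0.30 and 2.72 ± 0.30.

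Ifi214 and Ifi202b were the p200 genes not called in control tumours. Ifi214, whose printed promoter stretch carries the same 10 capitals as that of Ifi213, was not called in control tumours (log2 0.22 ± 0.21, edgeR adjusted p = 0.38) and rose in Sox2Hi tumours (1.14 ± 0.21, adjusted p = 0.0066). It was under 12 CPM in every library, and the stray-read estimate came to 32.1% of its reads. Under all-gene scaling it was called in both (0.78 and 0.87). Ifi202b, a HIN protein without a pyrin domain that antagonises AIM2, lies between Ifi203 and Ifi205 and was called in neither graft (-0.46 ± 0.41 and 0.11 ± 0.41). Its control naive libraries spread widely, at 81.0, 32.7 and 104 CPM. Ifi209 has no such paired GAAA in its window and rose by log2 2.42 in control tumours. Of the sequence words in Ifi209 transcripts, 46.8% also occur in Ifi214, so reads in these stretches were split between Ifi209 and Ifi214 by estimation. Whether the promoter letters or this split of reads had a part in the values of Ifi209 and Ifi214 was not tested.

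**Figure D3:**
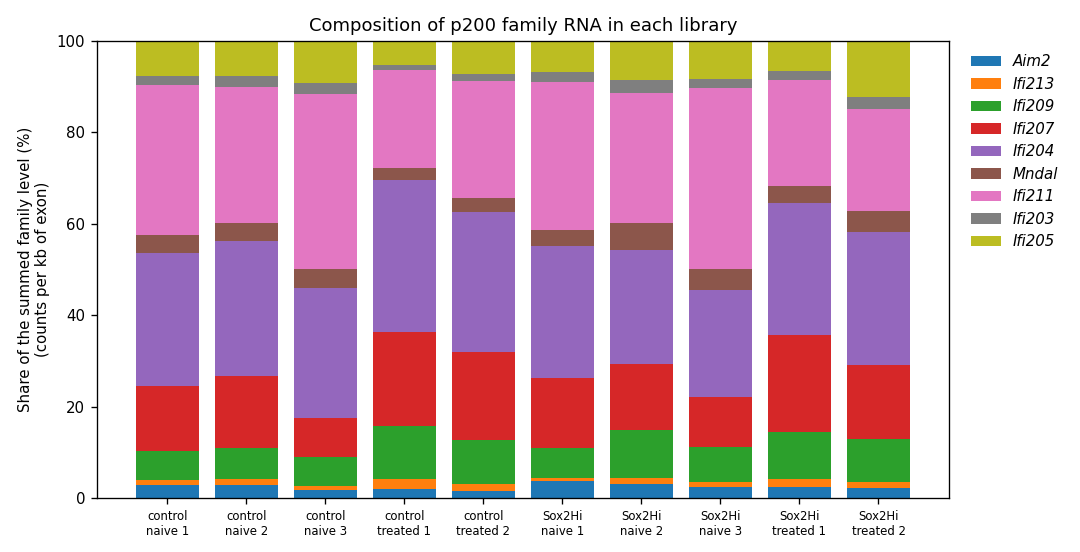
Each bar splits the summed level of the 9 members (CPM per kb of exon) in 1 library into shares that add to 100%. The share of Ifi211 was smaller and that of Ifi207 larger in treated than in naive libraries of control tumours.

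The make-up of family RNA shifted with these unequal responses, which are differences within a library and so do not depend on its scaling. The Ifi211 share of the summed level per kb was 33.5% ± 4.31 in control naive and 23.6% ± 2.96 in control treated libraries, and 33.4% ± 5.59 and 22.7% ± 0.566 in Sox2Hi libraries. Ifi207 went from 12.8% ± 3.75 to 19.8% ± 1.04 in control tumours and from 13.5% ± 2.28 to 18.6% ± 3.42 in Sox2Hi tumours (SD, n = 3 naive and 2 treated). As a description, the ratio of Ifi213 to Ifi203 counts was 0.378 to 0.546 naive and 1.05 to 2.14 treated in control tumours, and 0.380 to 0.495 naive and 0.526 to 0.947 treated in Sox2Hi tumours. Ifi203 was taken as the denominator after its values were seen, and it has the smallest change of the 9 members in control tumours.

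Between grafts in naive tumours, 3 of 9 members were lower in Sox2Hi than in control libraries by edgeR, where 11.9% of all genes tested were called lower: Ifi204 (log2 -0.71 ± 0.18, adjusted p = 0.024), Ifi213 (-0.66 ± 0.19, 0.043) and Ifi211 (-0.58 ± 0.17, 0.041). The B and plasma cell sum was 63.0 to 123 CPM in the control and 150.5 to 718 CPM in the Sox2Hi naive libraries, without overlap; of its 4 genes tested edgeR called 0 and 3 had an unadjusted p under 0.05 (median log2 2.14). Its part in the family's values was not tested. The median over the 9 members was -0.47 (range -0.71 to -0.21), beside -0.05 over all genes. Under all-gene scaling edgeR called 0, where 0.209% of genes were called lower; 0 members had an unadjusted p under 0.05, the median was -0.11, and Aim2, Ifi209 and Mndal were slightly positive. DESeq2 called 2 members and limma-voom 5. With the number in the titles as a replicate block over the 6 naive libraries, 5 were called, with Ifi207 and Ifi205 added. Leaving out control naive replicate 1 or 2, Sox2Hi naive replicate 2 or 3, or Sox2Hi treated replicate 2 left 0 called, and leaving out Sox2Hi naive replicate 1 or either control treated library left 1. The estimates of the 3 called members stayed negative on leaving out any 1 library, from -0.91 to -0.57 for Ifi204, from -0.77 to -0.53 for Ifi213 and from -0.66 to -0.44 for Ifi211. The number called in naive tumours thus depended on the scaling, the tool, the block and single libraries. Of the other p200 genes, Ifi214 fell by 0.84 ± 0.19 and Ifi202b fell by 1.26 ± 0.37 on the log2 scale, and neither was called under all-gene scaling.

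**Figure D4:**
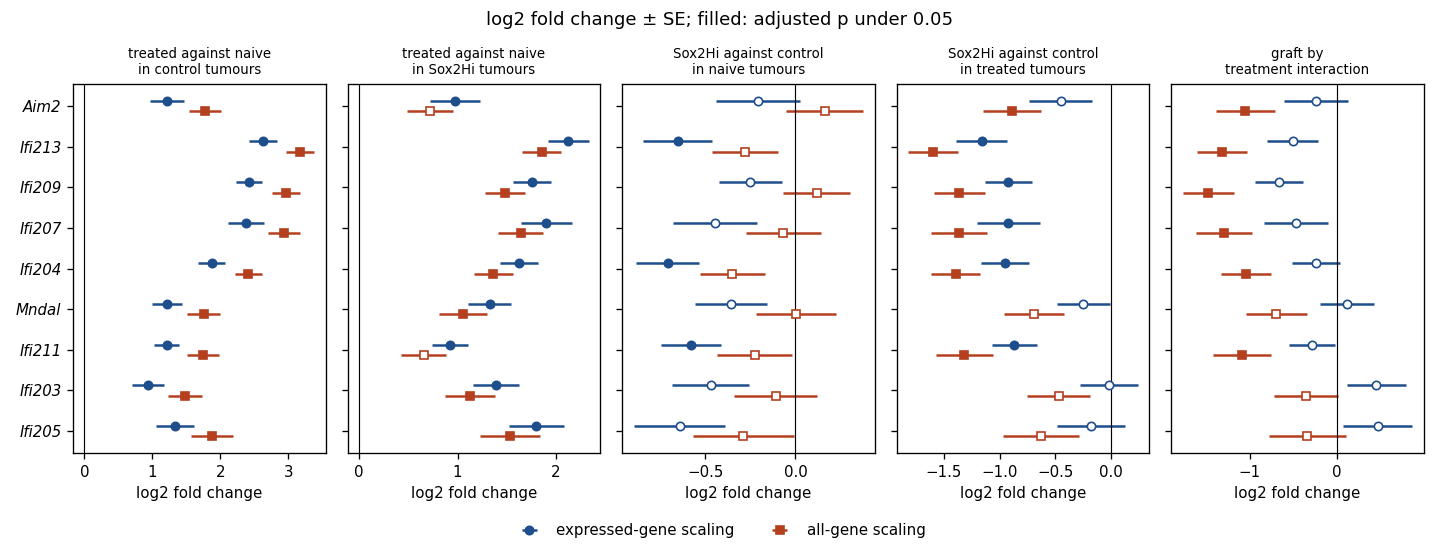
Log2 fold change (± SE) of the 9 members in the 5 comparisons, under expressed-gene scaling (circles) and all-gene scaling (squares); filled symbols passed adjusted p under 0.05. All 9 treatment effects lie above 0 in both grafts, and the interaction is the panel in which the scaling moves most calls, from 0 to 6.

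After treatment, 5 of 9 members were lower in Sox2Hi than in control tumours by edgeR, where 5.87% of all genes tested were called lower. These were Ifi213 (log2 -1.16 ± 0.23, adjusted p = 0.0098), Ifi204 (-0.95 ± 0.22, 0.015), Ifi209 (-0.92 ± 0.22, 0.017), Ifi207 (-0.92 ± 0.29, 0.044) and Ifi211 (-0.87 ± 0.20, 0.017). The level in Sox2Hi treated libraries was 0.447 to 0.548 times that in control treated libraries for these 5. The neutrophil markers moved with this difference. Their sum, mostly Il1r2, S100a8 and S100a9, was 19740 to 19850 CPM in Sox2Hi treated and 36460 to 37830 CPM in control treated libraries. By edgeR 4 of 13 tested were called lower (median log2 -0.61), and under all-gene scaling 8 of 14. Of the fibroblast and endothelial markers edgeR called 1 of 6 higher (median log2 1.12), and 3 had an unadjusted p under 0.05. It called 1 of 9 keratinocyte markers higher (median 0.004), where 1691 of 11274 genes were. Under all-gene scaling 0 of either list were called. The part of these markers in the family's difference was not tested. Not called were Aim2 (-0.45, 95% interval -1.14 to 0.24), Mndal (-0.25, -0.84 to 0.35), Ifi205 (-0.18, -0.93 to 0.58) and Ifi203 (-0.02, -0.65 to 0.62), and the intervals of Aim2 and Ifi205 reach past the change of Ifi211. Under all-gene scaling 6 were lower, Aim2 included, where 9.57% of genes were called lower. Scaled by library totals alone, 2 were lower, Ifi213 and Ifi204, and Mndal, Ifi203 and Ifi205 were positive.

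Leaving out 1 treated library leaves that group with a single library, and the spread is then taken from the other groups. The count of members called lower was 1 without Sox2Hi treated replicate 1, 5 without Sox2Hi treated replicate 2 (Ifi205 in place of Ifi207) and 2 without either control treated library. The estimates stayed negative in these fits: on leaving out any 1 library the log2 difference ran from -1.59 to -0.88 for Ifi213, from -1.20 to -0.85 for Ifi209, from -1.14 to -0.92 for Ifi207, from -1.21 to -0.82 for Ifi204 and from -1.09 to -0.76 for Ifi211.

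Sox2Hi treated replicate 2 held more Ifi205, Ifi203 and Mndal than replicate 1, by 2.23, 1.56 and 1.55 times, and less Ifi208 and Ifi206, at 0.589 and 0.718 times the level in replicate 1. The macrophage and monocyte list summed to 2252 CPM in replicate 2 and 1165 CPM in replicate 1 of that group. In control treated libraries, replicate 2 held 1.30 times the Ifi205 and 1.28 times the Ifi203 of replicate 1, with a macrophage and monocyte sum of 1739 against 2386 CPM. All 12 genes of that list were in the table and counted in every library, and the sum ran from 883 to 1382 CPM in control naive and from 1270 to 1769 CPM in Sox2Hi naive libraries. Of the 11 genes of the list tested, edgeR called 4 higher with treatment in control tumours (median log2 0.57, 24.1% of all genes called) and 3 in Sox2Hi tumours (0.41, 15%), and 1 lower in Sox2Hi treated than control treated libraries (-0.01, 5.87%). Under all-gene scaling these counts were 7, 1 and 2 of 12, beside 18.7%, 1.79% and 9.57% of genes. The gene called lower under expressed-gene scaling, Ly6c2, a monocyte surface protein, rose with treatment by log2 4.12 ± 0.32 in control and 3.04 ± 0.31 in Sox2Hi tumours and was lower in Sox2Hi treated than control treated libraries (-1.42 ± 0.33, edgeR adjusted p = 0.017). The T and NK cell sum was 55.8 to 94.2 CPM naive and 130 to 446 CPM treated in control tumours, and 39.4 to 132 CPM naive and 164 to 267 CPM treated in Sox2Hi tumours. Naive and treated sums did not overlap in either graft. Of the 6 genes tested, edgeR called 4 higher with treatment in control tumours (median log2 1.67, 24.1% of all genes called). In Sox2Hi tumours it called 2 (1.36, 15%). Under all-gene scaling these counts were 5 and 1 of 10, beside 18.7% and 1.79% of genes. The part of these cells in the family's values was not tested.

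The difference between the 2 treatment responses was tested as an interaction of graft and treatment. By edgeR 0 of 9 members were called, where 19.8% of all genes tested were called in either direction. Of the 11274 genes tested, 1908 were called higher and 320 lower. By that test 1 member, Ifi209, had an unadjusted p under 0.05 (log2 -0.67, 95% interval -1.35 to 0.01). Estimates were negative for 6 members and positive for Mndal (0.11), Ifi203 (0.45) and Ifi205 (0.47), with a median of -0.24 beside 0.02 over all genes. Under all-gene scaling 6 members were called lower (Aim2, Ifi213, Ifi209, Ifi207, Ifi204 and Ifi211), where 16.2% of the genes were called lower, and all 9 estimates were negative. DESeq2 and edgeR with DESeq2's size factors each called 1, Ifi209, and limma-voom called 0. Without control treated replicate 2, Ifi213 and Ifi209 were called. Whether a smaller response of the family in Sox2Hi tumours is called therefore depends on the scaling. For the neutrophil list edgeR called the interaction for 0 of 13 genes (median log2 -0.87, 4 with an unadjusted p under 0.05). Under all-gene scaling it was called lower for 10 of 14 neutrophil, 4 of 12 macrophage and monocyte and 2 of 8 dendritic cell markers. That scaling called 0 in the T and NK, B and plasma, keratinocyte, and fibroblast and endothelial lists. The part of these cells in the interaction was not tested.

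Genes that act with the family were read from 3 lists. Of 12 inflammasome partners tested, 10 rose in control tumours (24.1% of all genes) and 8 in Sox2Hi tumours (15% of all genes), and 0 were called lower. Pycard, which encodes the adaptor ASC that AIM2 recruits, rose by log2 2.56 ± 0.29 and 1.99 ± 0.29, and Casp4, a sensor of cytosolic lipopolysaccharide (caspase-11 in mice), by 2.10 ± 0.20 and 1.65 ± 0.20 (edgeR adjusted p from 6.5e-05 to 0.0019). After treatment 3 partners were lower in Sox2Hi than control tumours, where 5.87% of all genes were, among them Casp1, the protease activated downstream of ASC (-0.91 ± 0.19), and the cytokine gene Il18 (-1.01 ± 0.32). Under all-gene scaling 7 of 15 partners were lower, where 9.57% of genes were. In naive tumours 1 of 12 partners was called lower in Sox2Hi libraries, where 11.9% of all genes were. This was Casp1 (-0.78 ± 0.16), which edgeR did not call under all-gene scaling (-0.43, adjusted p = 0.19).

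Of 20 genes of cytosolic DNA sensing, 12 rose and 6 fell in control tumours, and 8 rose and 2 fell in Sox2Hi tumours. Of all genes tested, 24.1% rose in control and 15% in Sox2Hi tumours, while 33.1% fell in control and 6.57% in Sox2Hi tumours, so the falls in this list were near the background. Zbp1, a sensor of Z-form nucleic acids, rose by log2 2.41 ± 0.23 and 2.21 ± 0.23. In control tumours Irf7, a transcription factor of the interferon response, rose by 1.93 ± 0.29, and in Sox2Hi tumours Trex1, the exonuclease that removes cytosolic DNA, rose by 1.73 ± 0.29. The largest falls were those of Xrcc5 (-1.003 ± 0.23) and Prkdc (-0.89 ± 0.24) in control tumours, and Rad50 (-0.81 ± 0.24) and Xrcc6 (-0.71 ± 0.22) in Sox2Hi tumours. Under all-gene scaling 0 genes of this list fell in either graft. Tmem173, which encodes STING, was higher in Sox2Hi naive than control naive libraries (0.65 ± 0.16), and Tbk1, the kinase downstream of it, and Lrrfip1 were lower in Sox2Hi treated than control treated libraries (-0.73 ± 0.23 and -0.54 ± 0.17). These were 2 of 20 genes, beside 5.87% of all genes, and under all-gene scaling 8 of 22 were lower, beside 9.57%.

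Of 14 genes of interferon signalling, 13 rose in control tumours and 8 in Sox2Hi tumours, beside 24.1% and 15% of all genes. Irf1, an early interferon gamma target, rose by log2 1.559 ± 0.252 and 1.502 ± 0.252. Under all-gene scaling the number called higher in Sox2Hi tumours was 3 of 15 for this list, 4 of 15 for the inflammasome partners and 6 of 22 for DNA sensing, beside 1.79% of genes. Between grafts edgeR called 0 genes of interferon signalling, in naive and in treated tumours, with an unadjusted p under 0.05 for 1 and 3 genes, whereas under all-gene scaling 2 of 15 were higher in Sox2Hi naive libraries (1.66% of genes) and 7 lower in Sox2Hi treated libraries (9.57%). The interaction was called by edgeR for 0 genes of these 3 lists, with an unadjusted p under 0.05 for 0 inflammasome partners, 5 DNA sensing genes and 2 interferon signalling genes. Under all-gene scaling it was called lower for 8 of 15, 13 of 22 and 9 of 15 genes of these lists, where 16.2% of all genes were.

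Across the 10 libraries each member followed the mean of the other 8 with a Pearson correlation of 0.916 (Ifi211) to 0.984 (Ifi204) on the log2(CPM + 1) scale. The genes outside the family whose pattern was most like its mean were Xaf1 (0.993), B2m (0.992), H2-M3 (0.992), Casp4 (0.990) and Nlrc5 (0.990). These correlations describe 10 libraries that share 4 groups and a scaling.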

How the data were processed

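Bulk RNA-seq was measured in 10 libraries. The authors deposited 1 table of estimated counts per gene, written as whole numbers; kallisto 0.44.0 and the build mm10 are named in the submitters' processing notes, and the annotation is not given in the sources used here. kallisto divides reads shared by transcripts, so values of similar genes are estimates. The 4 deposited values over 6 digits all end in 0. Columns were matched by the labels' descriptions. The 96 spike-in and transgene entries were left out; 55144 of 55385 identifiers matched GENCODE M21.

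All 10 libraries entered 1 edgeR 4.0.16 quasi-likelihood model (R 4.3.3) with 4 groups, on genes of at least 5 CPM on average, with TMM factors from those genes, a choice made because the stray-read estimate over silent genes differed between groups; its part in the all-gene factors was not tested. Calls are Benjamini-Hochberg adjusted p under 0.05 over all 11274 genes. Intervals are 95%, from the SE and a t distribution with 6 residual degrees of freedom. The common biological coefficient of variation was 0.212. Alternatives were all-gene scaling, other filters and factors, DESeq2 1.42.0, limma 3.58.1 (voom), replicate blocks, stray-read subtraction and leaving out each library. Replicate numbers in the titles paired the naive libraries of the 2 grafts (correlations of deviations 0.273, 0.325 and 0.474), which the labels do not explain. They did not pair the treated libraries of the 2 grafts (-0.095). Control treated libraries correlated with naive libraries of the same title number at 0.153 to 0.246, and Sox2Hi treated libraries at -0.28 to 0.085. The script was tested on simulated data: of 2-fold and 4-fold changes with treatment in control tumours, 41% and 100% were recovered, and of 2-fold and 4-fold interactions 12% and 85%. No 2 libraries of the same group were duplicates (chi-square per degree of freedom at least 12.5 over 8 pairs). Counts cover sampling of reads only.

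Members and lists were chosen with earlier results of these data known. Named were all members, p200 genes of at least 5 CPM, per list and comparison the 2 called genes that rose most and the 2 that fell most, and the 5 genes most like the family; 1 gene so chosen is not reported here.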

Additional observations from a re-analysis of the deposited data

How the results depend on the processing

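Over 21 alternatives each, 188 of 189 member values kept direction and call for treatment in control tumours and 179 of 189 in Sox2Hi tumours, with 0 reversed. Members called with treatment in Sox2Hi tumours were 5 to 9 on leaving out 1 library. In naive tumours Sox2Hi against control gave 0 under all-gene scaling and in the 2 groups alone, 1 with all counted genes, with DESeq2's size factors in edgeR and with library totals, 5 with limma-voom and with the replicate block over naive libraries, and 0 to 2 on leaving out a library; Aim2 (0.16), Ifi209 (0.12) and Mndal (0.004) turned positive under all-gene scaling. In treated tumours library totals gave 2 and leaving out a library 1 to 5. There the 2 groups alone gave 4, without Ifi213, and limma-voom and stray-read subtraction gave 4 each, without Ifi207. In the same comparison Ifi203, Mndal and Ifi205 turned positive with library totals (0.28, 0.05 and 0.096) and without Sox2Hi treated replicate 1. On leaving out a library they ran from -0.473 to 0.268, -0.699 to 0.036 and -0.97 to 0.288. Ifi203 was also positive with the replicate block by description (0.074) and without control treated replicate 2 (0.044). Ifi214 turned negative under all-gene scaling (-0.37), size factors (-0.086), DESeq2 (-0.087), stray-read subtraction (-0.18), without control treated replicate 1 and without Sox2Hi treated replicate 1 (leaving out a library, -0.173 to 0.132). The interaction gave 6 under all-gene scaling, 1 with DESeq2 or its factors, and 0 to 2 on leaving out a library. Its estimates turned negative under all-gene scaling for Mndal (-0.70), Ifi203 (-0.36), Ifi205 (-0.34) and Ifi202b (-0.20), for Mndal with size factors and DESeq2 (-0.14), without control treated replicate 1 or 2, and, without Sox2Hi treated replicate 2, for Mndal, Ifi203 and Ifi205; leaving out a library gave -0.426 to 0.395, -0.09 to 0.738 and -0.411 to 0.932. Ifi202b turned to -0.007 with the block by description, and Aim2 to 0.006 without Sox2Hi naive replicate 1 (range -0.638 to 0.006). For treatment, Ifi202b turned to 0.045 in control tumours under all-gene scaling and, in Sox2Hi tumours, to -0.16 there, -0.23 with library totals, -0.15 with the block by description and -0.113 without Sox2Hi naive replicate 2 (range to 0.424); Ifi214 turned to -0.33 in control tumours with library totals. With the longest transcript as length the highest level was 19.3 times the lowest. The interaction uses all groups and has no value in 2 groups alone. The replicate block by title over all 10 libraries gave 4 in naive tumours and changed no other count. With 2 treated libraries per graft, differences between grafts rest on 4 libraries. The causes of these changes were not tested.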
